A study of Mus musculus with 23 samples.

Results

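The genes described here are 10 targets of p53, measured across sorted cells of Py2T tumours: Mdm2, Ccng1, Trp53inp1, Sesn1, Bbc3, Pmaip1, Btg2, Zmat3, Phlda3 and Plk2. They were taken by name, and each had 1 transcript cluster that the platform annotation ties to a single gene, so all 10 are among the 19938 genes tested. Py2T cells, a line of mouse breast cancer cells, had been grown in the mammary gland of female FVB/N mice. Tumour cells and blood vessel endothelial cells were sorted by flow cytometry and profiled on 23 arrays. Tumour cells came from untreated tumours (3 arrays), from tumours under nintedanib at 50 mg/kg for 7 days (short-term, 4 arrays) and from tumours under the same dose for 21 days (long-term, 5 arrays). Endothelial cells came from the same kinds of tumour on 3, 3 and 5 arrays. Nintedanib inhibits the receptor kinases of VEGF, FGF and PDGF. According to the series text the untreated tumours were size-matched to the long-term ones, so the short-term group had no size-matched control. All tumour cells derive from 1 cell line, and the labels do not say how many animals each array represents.

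The transcription factor p53 is stabilised after DNA damage, oncogene activity and other stress, and then switches on genes that stop the cell cycle, repair damage, limit growth signalling or kill the cell. Mdm2 encodes the ubiquitin ligase that degrades p53, so the target shuts down its own activator. Several of these genes also answer to other inputs: Btg2 and Plk2 belong to the genes induced within minutes by growth factors and stress, and Sesn1 is also driven by FOXO factors.

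Levels are log2 signals as deposited, so a difference of 1 is a factor of 2. They are compared here between arrays for the same gene and never between genes, because probes differ in brightness. A gene was called changed at an adjusted p under 0.05 in limma, with Benjamini-Hochberg adjustment over all 19938 genes. Errors on differences are standard errors of that fit, and intervals are 95% intervals. The labels name the arrays of a group biological replicates without giving their animals, so p-values measure the spread between these arrays.

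The sort held by its endothelial markers: all 14 were called higher in endothelial cells in each of the 3 untreated, short-term and long-term comparisons with tumour cells, and their mean ran from 3.92 to 4.27 in tumour arrays and from 9.87 to 10.43 in endothelial ones. Of 10 epithelial markers 3 were called lower in untreated endothelial cells, and their mean overlapped between the cell types, from 6.49 to 7.14 in tumour arrays and from 5.47 to 7.71 in endothelial ones. The endothelial arrays varied in other cells' transcripts. The mean of 16 macrophage markers ran from 5.36 to 7.32 in untreated, 4.52 to 4.90 in short-term and 4.91 to 7.34 in long-term endothelial arrays, against 4.20 to 5.01 in tumour arrays. Of 10 pericyte markers 7, 8 and 7 were called higher in untreated, short-term and long-term endothelial than in tumour cells, of 10 fibroblast markers 1, 5 and 1, and of 9 T and NK cell markers 1, 5 and 3. In each comparison 1 pericyte, 2 fibroblast and 1 T and NK cell marker were called lower. Of all genes 8.18%, 23% and 15.7% were called higher and 10.2%, 17.0% and 16.3% lower, so the fibroblast markers gave no clear excess in untreated and long-term cells. In short-term against untreated endothelial cells 9 of the 10 pericyte markers had positive differences (median 0.30, 4 at an unadjusted p under 0.05, 0 called by limma). In sorted bulk RNA, fewer cells of a type and less RNA per cell cannot be told apart. Arrays of a group correlated at 0.935 or higher across genes.

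Promoter sequences are shown for the members in which the p53 decamer, the 10-base unit that p53 binds, was found. It is a C and a G around 2 bases that are A or T, with 3 purines before and 3 pyrimidines after, and it reads alike on both strands. From RefSeq (GRCm38.p6) 10 start windows of 7 members were used, each from 250 bases before to 50 bases after a start. This is a selection that leaves out the remaining members. Of the 10 windows 3 held the decamer, against 8.36% of all 32851 windows. Printed are the 250 bases before the start, 5′ to 3′ on the gene's strand, with the decamer in capitals: Ccng1 (chr11:40755287-40755536, minus strand), Mdm2 (chr10:117710759-117711008, minus strand) and the downstream start of Sesn1 (chr10:41887189-41887438, plus strand).
Ccng1: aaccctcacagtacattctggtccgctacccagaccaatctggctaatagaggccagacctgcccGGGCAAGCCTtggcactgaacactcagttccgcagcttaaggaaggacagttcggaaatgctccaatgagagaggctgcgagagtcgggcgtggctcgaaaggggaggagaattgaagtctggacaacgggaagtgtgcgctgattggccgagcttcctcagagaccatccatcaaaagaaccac
Mdm2: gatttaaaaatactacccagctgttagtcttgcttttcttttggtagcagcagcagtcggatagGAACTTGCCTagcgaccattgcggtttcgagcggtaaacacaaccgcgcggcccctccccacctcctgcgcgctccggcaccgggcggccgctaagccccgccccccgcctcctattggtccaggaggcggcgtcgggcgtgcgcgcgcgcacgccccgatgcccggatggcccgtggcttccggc
Sesn1: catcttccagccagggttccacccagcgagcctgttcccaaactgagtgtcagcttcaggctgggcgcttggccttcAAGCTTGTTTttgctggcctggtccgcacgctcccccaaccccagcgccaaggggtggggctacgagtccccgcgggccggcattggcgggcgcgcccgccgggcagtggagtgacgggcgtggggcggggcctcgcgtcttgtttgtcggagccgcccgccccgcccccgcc
In Ccng1 the decamer at base -185 from the start adjoins a second one on its upstream side, with 1 mismatch over the 20 bases of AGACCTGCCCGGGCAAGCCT. Such a double site with at most 1 mismatch stood in 0.0883% of all windows and in 1 of the 10 windows of the members. The remaining windows, of Btg2, Phlda3, Plk2, all 3 starts of Bbc3 and the upstream start of Sesn1, held no decamer, which says only that these letters are not there. The well-known p53 sites of Mdm2 lie in its first intron, outside this window. Trp53inp1, Zmat3 and Pmaip1 are named only.

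Most of the 10 genes were lower in endothelial than in tumour cells, and Plk2 was higher. Mdm2, Ccng1, Trp53inp1 and Zmat3 were called lower in endothelial cells in all 3 comparisons (untreated, short-term and long-term), by 2.12-fold to 4.4-fold. Plk2 was called higher in all 3, by 2.2-fold to 3.28-fold. Bbc3 was called in 0 of the 3. In untreated cells 4 members were called lower and 1 higher, where 10.2% and 8.18% of all genes were (18.3% in all). In short-term cells 7 were lower and 1 higher, with 17.0% and 23% of all genes (40.0% in all). In long-term cells 6 were lower and 2 higher, with 16.3% and 15.7% of all genes (32.0% in all). The median difference of the members was -0.54, -1.05 and -0.96 log2 units in the same order, and that of all genes 0.03, 0.11 and 0.06.

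**Figure D1:**
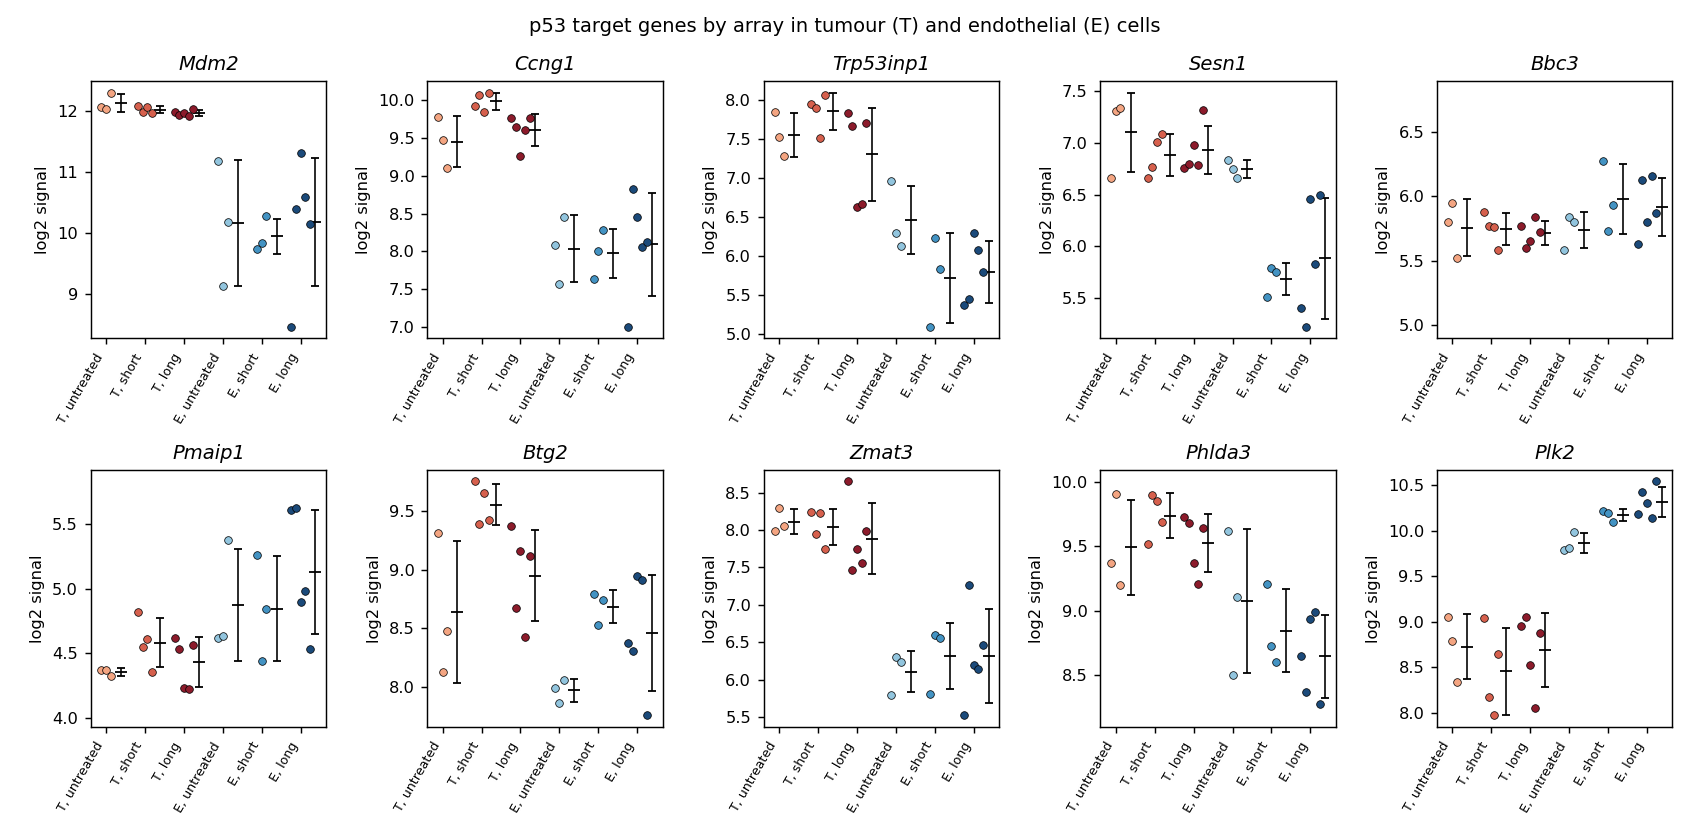
Level (log2 signal) of each of the 10 genes in tumour (T) and endothelial (E) cells, untreated, short-term and long-term. Each point is 1 array, and bars show the mean and SD of a group; Mdm2 lay between 11.92 and 12.30 on the tumour arrays and between 8.47 and 11.32 on the endothelial ones. Each panel has its own axis.

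Among the feedback genes, Mdm2 was held in a narrow range in tumour cells. It measured 12.07, 12.03 and 12.30 on the untreated arrays, 12.09, 11.98, 12.06 and 11.97 on the short-term arrays, and 11.98, 11.93, 11.97, 11.92 and 12.03 on the long-term arrays. The endothelial arrays gave 11.19, 9.14 and 10.18 untreated, 9.74, 9.84 and 10.28 short-term, and 8.47, 10.40, 11.32, 10.59 and 10.15 long-term. Every endothelial array was below every tumour array, and the SD within a group was 0.04 to 0.15 in tumour cells and 0.29 to 1.05 in endothelial cells. Mdm2 was lower in endothelial cells in each treatment group, with differences of -1.97 ± 0.48 log2 units untreated, -2.07 ± 0.45 short-term and -1.78 ± 0.38 long-term and adjusted p = 0.00641, 0.00159 and 0.00114. The untreated call was lost without untreated endothelial replicate 2, the lowest of its group, at a difference of -1.45 and adjusted p = 0.0539.

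Ccng1 encodes cyclin G1, which recruits a phosphatase to MDM2. Its tumour cell levels were 9.78, 9.48 and 9.10 untreated, 9.93, 10.07, 9.85 and 10.09 short-term, and 9.77, 9.64, 9.26, 9.60 and 9.76 long-term. Its endothelial levels were 8.08, 7.57 and 8.45 untreated, 7.63, 8.01 and 8.28 short-term, and 7.00, 8.83, 8.46, 8.06 and 8.12 long-term. The 2 cell types did not overlap in any condition. The differences of -1.42 ± 0.32, -2.01 ± 0.30 and -1.51 ± 0.25 had adjusted p = 0.00327, 4.13e-05 and 0.000101.

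Trp53inp1, a stress protein that promotes p53 activity and autophagy, measured 7.85, 7.52 and 7.28 in untreated, 7.95, 7.90, 7.51 and 8.06 in short-term and 7.84, 7.67, 6.63, 6.67 and 7.70 in long-term tumour cells. In endothelial cells it measured 6.96, 6.30 and 6.13 untreated, 5.09, 6.23 and 5.83 short-term, and 5.37, 5.45, 6.30, 6.08 and 5.79 long-term. All endothelial arrays were lower than all tumour arrays of the same treatment. The differences were -1.09 ± 0.35, -2.14 ± 0.33 and -1.50 ± 0.27, with adjusted p = 0.0338, 5.22e-05 and 0.000249. The untreated call was lost without either of 2 endothelial arrays (replicates 2 and 3) and without either of 2 tumour arrays (replicates 1 and 2), with adjusted p = 0.109, 0.12, 0.134 and 0.0714.

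Bbc3 encodes PUMA and Pmaip1 encodes NOXA, BH3-only proteins that bind and block the survival proteins of the BCL2 family. Bbc3 ran from 5.52 to 5.95 over the 12 tumour arrays and from 5.58 to 6.27 over the 11 endothelial arrays. Its differences between cell types had intervals of -0.33 to 0.30 untreated, -0.06 to 0.52 short-term and -0.04 to 0.44 long-term, so a change of 2-fold lies outside all 3. Pmaip1 ran from 4.22 to 4.82 in tumour cells and from 4.44 to 5.63 in endothelial cells. It was called in long-term cells only, higher in endothelial cells by 0.70 ± 0.20 (adjusted p = 0.0121) with groups that overlapped. In untreated and short-term cells its differences were 0.52 ± 0.26 and 0.26 ± 0.24, at adjusted p = 0.191 and 0.388, and the difference between these effects was not called (-0.25 ± 0.36 for short-term and 0.18 ± 0.33 for long-term treatment).

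Zmat3, which encodes an RNA-binding zinc finger protein that acts in splicing, was lower in endothelial cells in all 3 conditions. Tumour cells had 7.99, 8.30 and 8.05 untreated, 8.24, 7.95, 8.23 and 7.74 short-term, and 8.65, 7.47, 7.74, 7.56 and 7.99 long-term. Endothelial cells had 5.79, 6.30 and 6.23 untreated, 5.81, 6.60 and 6.55 short-term, and 5.52, 7.26, 6.20, 6.14 and 6.46 long-term. The cell types stood apart in every condition, by -2.0 ± 0.34, -1.71 ± 0.32 and -1.56 ± 0.26 (adjusted p = 0.000224, 0.000369 and 0.000124).

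Phlda3 encodes a small protein that competes with AKT for membrane lipids. It ran from 9.20 to 9.91 in tumour cells and from 8.28 to 9.62 in endothelial cells. Endothelial cells were lower at -0.89 ± 0.24 short-term and -0.88 ± 0.20 long-term (adjusted p = 0.00659 and 0.00195), without overlap. The untreated groups overlapped, with -0.41 ± 0.25 and adjusted p = 0.299.

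Sesn1 encodes sestrin 1, which restrains the growth kinase complex mTORC1. Tumour cells gave 6.66, 7.31 and 7.34 untreated, 6.66, 6.77, 7.01 and 7.09 short-term, and 6.76, 6.80, 6.98, 6.79 and 7.32 long-term. Endothelial cells gave 6.84, 6.75 and 6.66 untreated, 5.51, 5.79 and 5.75 short-term, and 5.40, 5.22, 6.46, 5.83 and 6.50 long-term. The untreated endothelial arrays lay within the tumour range, while every treated endothelial array lay below it. The cell types differed by -0.35 ± 0.27 untreated (adjusted p = 0.42), -1.20 ± 0.25 short-term (0.00123) and -1.05 ± 0.21 long-term (0.000731).

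Btg2 encodes an antiproliferative protein that speeds mRNA decay. Its tumour cell levels were 9.31, 8.13 and 8.48 untreated, 9.75, 9.39, 9.65 and 9.42 short-term, and 9.37, 8.67, 9.16, 8.43 and 9.12 long-term. Endothelial levels were 7.99, 7.87 and 8.06 untreated, 8.79, 8.53 and 8.74 short-term, and 8.38, 8.31, 8.95, 8.91 and 7.76 long-term. The cell types overlapped in the long-term groups alone. Only the short-term difference was called, at -0.86 ± 0.28 (adjusted p = 0.0185), and it was lost without short-term endothelial replicate 2, at adjusted p = 0.0547, and with array weights, at 0.0714. The untreated difference was -0.66 ± 0.29 and the long-term one -0.49 ± 0.23.

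Plk2, a polo-like kinase that acts in centriole duplication and the stress response, was the member that was higher in endothelial cells throughout. Tumour cells had 9.05, 8.79 and 8.34 untreated, 9.04, 8.17, 7.97 and 8.64 short-term, and 8.95, 9.05, 8.52, 8.05 and 8.88 long-term. Endothelial cells had 9.79, 9.81 and 9.99 untreated, 10.22, 10.19 and 10.10 short-term, and 10.18, 10.42, 10.30, 10.14 and 10.54 long-term. All 11 endothelial arrays exceeded all 12 tumour arrays. The differences were 1.14 ± 0.25, 1.71 ± 0.24 and 1.63 ± 0.19, with adjusted p = 0.00269, 1.68e-05 and 2.42e-06.

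**Figure D2:**
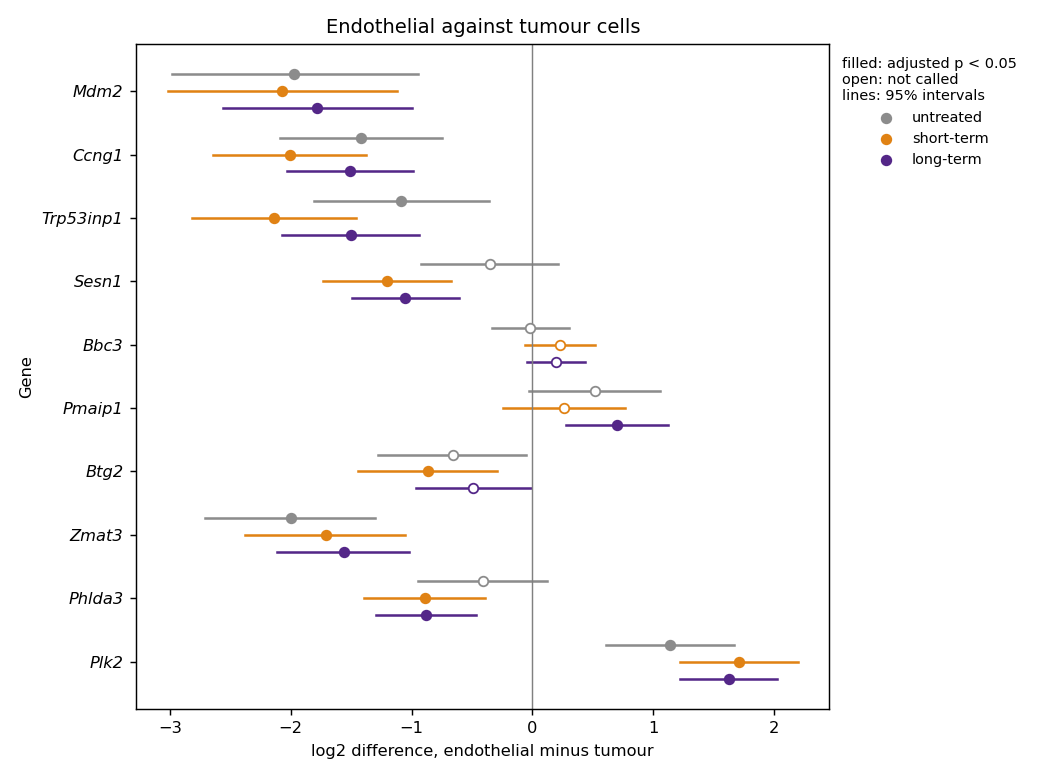
Difference in level (log2, endothelial minus tumour) of each gene in untreated, short-term and long-term cells, with 95% intervals of the limma fit. Filled points were called at an adjusted p under 0.05; Mdm2, Ccng1, Trp53inp1 and Zmat3 lie below 0 and Plk2 above 0 in all 3 conditions.

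Groups that do not overlap were also counted. In untreated cells 5 members were lower and 2 higher in every endothelial than in every tumour array, against 18% and 17.7% of all genes. In short-term cells 7 were lower and 1 higher (17.7% and 26.6% of all genes), and in long-term cells 6 lower and 1 higher (12% and 11.6%). A further fit left out the 3 endothelial arrays highest in macrophage markers (untreated replicate 1, long-term replicates 3 and 4), a choice made after seeing the data. The limma calls of the members then stayed the same in the 3 conditions, except that Btg2 was also called in long-term cells at -0.80 (adjusted p = 0.0169).

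Under nintedanib, none of the 10 genes was called by limma in tumour cells, and Btg2 and Ccng1 had the largest short-term differences. In short-term against untreated tumour cells Btg2 was at 0.91 ± 0.27 and Ccng1 at 0.53 ± 0.16, both with adjusted p = 0.186. Every short-term array was above every untreated one for these 2 genes, as for 5.32% of all genes (4.9% for the opposite order, in which no member stood). Of all genes 0.507% were called, 0.396% higher and 0.11% lower, and 2 of the 10 members and 2198 of the 19938 genes had an unadjusted p under 0.05. Trp53inp1 was at 0.30 ± 0.30, Phlda3 at 0.25 ± 0.17 and Pmaip1 at 0.23 ± 0.12. Sesn1 (-0.22 ± 0.18), Plk2 (-0.27 ± 0.29), Mdm2 (-0.11 ± 0.08), Zmat3 (-0.07 ± 0.24) and Bbc3 (-0.01 ± 0.11) had negative differences. For Mdm2 the interval of -0.28 to 0.06 and for Bbc3 that of -0.24 to 0.22 are narrow, whereas that of Plk2 ran from -0.89 to 0.35.

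Immediate early and dissociation genes are given beside Btg2, which shares their inputs. Of the 21 measured, 3 rose in short-term tumour cells (Hspa1a by 1.63 ± 0.08, Dusp1 by 1.32 ± 0.20 and Zfp36 by 0.84 ± 0.16), and the differences of 19 were above 0 (median 0.69). Their mean was 8.67 to 9.0 on untreated tumour arrays and 9.23 to 9.67 on short-term ones, without overlap. Their part in the difference of Btg2 was not tested.

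In long-term against untreated tumour cells 0 members were called by limma, with 0.0903% of all genes called (0.0752% higher and 0.015% lower) and 1 member at an unadjusted p under 0.05, as for 2020 of the 19938 genes. The member was Mdm2, at -0.17 ± 0.07 with adjusted p = 0.464; its highest long-term and lowest untreated arrays both round to 12.03 and do not overlap, as for 3.04% of all genes in that direction and 2.99% in the other. Btg2 was at 0.31 ± 0.26 and Ccng1 at 0.15 ± 0.15, and Trp53inp1 at -0.25 ± 0.28. When long-term were compared with short-term tumour cells, 8 of the 10 differences were negative, beside 10136 of the 19938 genes. By limma 0 members were called, with 1.22% of all genes called (0.622% higher and 0.597% lower). An unadjusted p under 0.05 was found for 2 members and 2365 genes. Btg2 was at -0.60 ± 0.24, Trp53inp1 at -0.55 ± 0.26 and Ccng1 at -0.38 ± 0.14, with adjusted p = 0.313, 0.441 and 0.268. Btg2 and Ccng1 were lower in every long-term array than in every short-term one, as were 2.4% of all genes, with 2.94% in the opposite order. These 3 tumour comparisons share arrays with one another.

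In endothelial cells, nintedanib gave no call by limma among the members either, where 0.0% of all genes were called in each of the 3 comparisons. Those with an unadjusted p under 0.05 numbered 3 for short-term against untreated cells, 2 for long-term against untreated and 0 for long-term against short-term, beside 1629, 833 and 1875 of the 19938 genes. In the last of these 0 members stood apart without overlap, against 2.0% of all genes upward and 3.9% downward. Sesn1 had the largest differences, -1.07 ± 0.32 short-term and -0.87 ± 0.28 long-term, with adjusted p = 0.549 and 1. All 8 treated arrays lay below the 3 untreated ones, a separation that 3.96% of all genes showed in the short-term and 1.36% in the long-term comparison. Of 16 macrophage markers 0 were called by limma and 3 had an unadjusted p under 0.05 in short-term against untreated endothelial cells; 14 differences were negative, with a median of -1.22, while in the long-term comparison their median was 0.04. Over the 11 endothelial arrays Sesn1 and the macrophage mean had r = 0.59 and rho = 0.65 (permutation p = 0.059 and 0.032, adjusted over 40 relations 0.22 and 0.21), with r = 0.39 without the 2 arrays farthest from the median and 0.65 after subtracting group means.

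Plk2 and Btg2 went the other way in endothelial cells. Plk2 was at 0.30 ± 0.13 short-term and 0.45 ± 0.11 long-term (adjusted p = 0.607 and 0.943), and all 8 treated arrays were above the untreated ones. Btg2 was at 0.71 ± 0.27 and 0.49 ± 0.24 (adjusted p = 0.595 and 1), with overlap in the long-term groups. Of all genes 9.87% were higher in every short-term than in every untreated array and 2.14% in every long-term one. Trp53inp1 was at -0.75 ± 0.34 and -0.67 ± 0.31 (adjusted p = 0.618 and 1). It had r = 0.71 and rho = 0.63 with the macrophage mean over the 11 endothelial arrays (permutation p = 0.012 and 0.044, adjusted 0.082 and 0.22), with 0.47 without the 2 farthest arrays and 0.84 after subtracting group means, and the part of macrophage RNA in these differences was not tested. For Mdm2 the short-term interval ran from -1.70 to 1.26 and the long-term one from -1.31 to 1.34, so 2-fold changes lie inside both. Of 21 immediate early genes 20 were above 0 in the short-term and 18 in the long-term endothelial comparison (medians 0.64 and 0.68), with 8 and 11 at an unadjusted p under 0.05 and 0 called by limma.

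**Figure D3:**
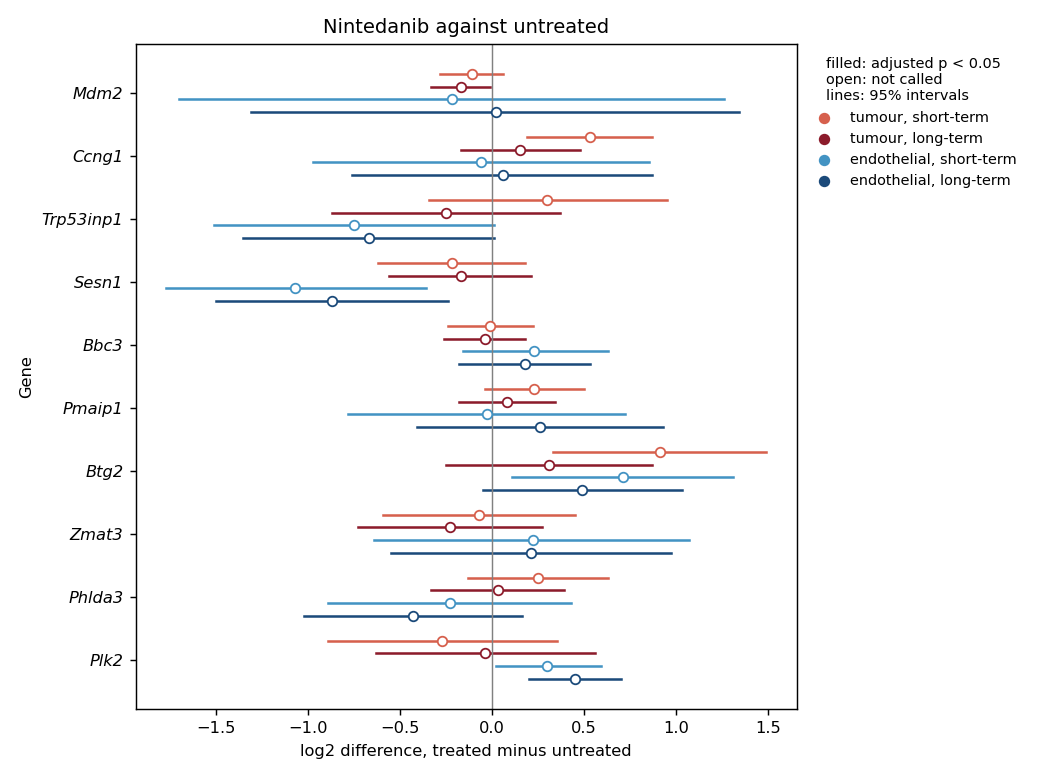
Difference in level (log2, treated minus untreated) of each gene in tumour and endothelial cells after short-term and long-term nintedanib, with 95% intervals of the limma fit. All points are open because 0 of the differences were called; the widest intervals are those of Mdm2 in endothelial cells.

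The treatment effects were also compared between the cell types, endothelial minus tumour. Of 20 such differences 0 were called by limma, with 0.0953% of all genes called for short-term (0.0301% higher and 0.0652% lower) and 0.0% for long-term treatment. An unadjusted p under 0.05 was found for 2 members in the short-term and 0 in the long-term effect, beside 2203 and 1063 of the 19938 genes. Trp53inp1 was at -1.05 ± 0.48 and Sesn1 at -0.85 ± 0.37 for the short-term effect, with adjusted p = 0.427 and 0.418. For the long-term effect Sesn1 was at -0.70 ± 0.34 and Plk2 at 0.49 ± 0.32 (adjusted p = 0.93 and 0.963). A treatment effect on Sesn1 that differs between the cell types was thus not shown.

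The rest of the p53 pathway was read from fixed lists. Their members were chosen with earlier results of these data known. Trp53, Cdkn1a and Bax are not analysed here. Of 47 further p53 targets 17 were lower and 5 higher in untreated endothelial cells, with a median of -0.41, where 10.2% of all genes were lower and 8.18% higher. In short-term and in long-term cells 20 were lower and 5 higher, with medians of -0.54 and -0.45, against 17.0% lower and 23% higher and then 16.3% lower and 15.7% higher of all genes. Psrc1, a microtubule regulator, was lower, at -2.12 ± 0.29, -3.41 ± 0.27 and -2.18 ± 0.23 log2 units in the 3 conditions, and Ddit4l, an mTORC1 inhibitor, at -2.93 ± 0.29, -2.13 ± 0.27 and -2.22 ± 0.23. Ptp4a3, a phosphatase, was higher by 2.01 ± 0.23 untreated and 1.96 ± 0.18 long-term, and Trp53i11 by 3.32 ± 0.35 and 2.39 ± 0.27. Gadd45a, which acts in damage signalling, was called lower in short-term cells alone (-1.30 ± 0.43, adjusted p = 0.0229). The difference of its treatment effect between cell types was not called (-0.35 ± 0.63, adjusted p = 0.858).

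Of 21 measured genes of the p53 circuit, its regulators and partners, 5, 7 and 8 were lower and 3, 2 and 2 higher in endothelial cells in the 3 conditions. Of all genes 18.3%, 40.0% and 32.0% were called in either direction, so the short-term count of 9 of 21 is near that of all genes. Ppp1r13b, which encodes ASPP1, a p53 cofactor for death genes, was higher by 2.44 ± 0.29, 2.77 ± 0.28 and 3.30 ± 0.23. Cdkn2a, which encodes the MDM2 inhibitor ARF and the kinase inhibitor p16, was lower, at -2.18 ± 0.47 untreated and -2.45 ± 0.36 long-term. The ligase gene Rchy1 was lower, at -1.11 ± 0.21 short-term and -1.13 ± 0.18 long-term. Mdm4, the p53 inhibitor related to Mdm2, was not called in any of the 3, at -0.60 ± 0.38, -0.66 ± 0.35 and -0.71 ± 0.29.

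Relatives of the members in their own families gave 5, 13 and 7 lower and 0, 3 and 1 higher genes of 19 in the same comparisons, beside 10.2%, 17.0% and 16.3% of all genes lower and 8.18%, 23% and 15.7% higher. Btg1, a relative of Btg2, was lower, at -1.32 ± 0.30 untreated and -1.23 ± 0.23 long-term, and Plk4, which drives centriole duplication, at -0.91 ± 0.21 and -1.1 ± 0.16. Bik was higher in long-term endothelial cells by 3.71 ± 0.59, and Hrk in short-term ones by 0.62 ± 0.11. Of 6 survival and pore-forming BCL2 family genes 2, 3 and 3 were higher and 0, 2 and 0 lower. Bcl2 was higher in endothelial cells by 1.05 ± 0.22, 0.97 ± 0.20 and 0.50 ± 0.17 and Bak1 by 0.93 ± 0.23, 0.57 ± 0.21 and 0.84 ± 0.18. The survival gene Bcl2l1 was lower, at -1.44 ± 0.24, in short-term cells.

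Lists for other inputs to the members are given beside the 18.3%, 40.0% and 32.0% of all genes called between the cell types. Of 12 amino acid stress genes 6, 7 and 6 were lower and 0, 0 and 1 higher in endothelial cells, among them Nupr1 at -3.17 ± 0.48, -2.89 ± 0.45 and -2.23 ± 0.37. Of 11 FOXO targets, Sesn1 included, 2, 6 and 5 were lower and 2, 3 and 2 higher, in both directions. The insulin receptor gene Insr was higher by 3.20 ± 0.22, 2.78 ± 0.21 and 2.64 ± 0.17, and Bcl6 lower, at -1.8 ± 0.34, -2.57 ± 0.32 and -2.39 ± 0.26. Of 21 immediate early genes 7, 10 and 7 were lower and 1, 1 and 2 higher, with Klf2 higher by 2.09 ± 0.23, 1.30 ± 0.21 and 1.70 ± 0.18 and Fosb lower, at -1.9 ± 0.39 untreated and -1.89 ± 0.37 short-term.

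Under treatment these lists gave few calls. The p53 circuit, the BCL2 family, the amino acid stress genes and the FOXO targets had 0 called by limma in all 6 treatment comparisons, with 0 to 5 genes per list at an unadjusted p under 0.05. Of the 47 further targets 0 were called against untreated cells. In short-term against untreated tumour cells 32 of them had positive differences and 11 an unadjusted p under 0.05, beside 9325 and 2198 of the 19938 genes. In long-term against short-term tumour cells 36 were negative and 14 had such a p, beside 10136 and 2365 genes. In the remaining treatment comparisons 2 to 5 had such a p. In long-term against short-term tumour cells Steap3, an iron reductase, rose by 0.95 ± 0.13, and Tob1 and Psrc1 fell by 0.53 ± 0.11 and 0.67 ± 0.15. In the same comparison Btg1 rose by 0.55 ± 0.09 and Plk4 by 0.70 ± 0.14. Cell cycle genes, which p53 lowers through p21, are given as a list: 5 of 19 rose, where 0.622% of all genes did, all 19 differences were above 0 (median 0.75), and Nek2 rose by 1.00 ± 0.13, Cdc25c by 1.12 ± 0.21, Birc5 by 0.80 ± 0.15 and Ect2 by 0.99 ± 0.20. The mean of the 19 was 6.79, 7.31, 7.44, 7.45 and 6.41 on the long-term and 6.17 to 6.50 on the short-term tumour arrays, so long-term replicate 5 lay within the short-term range. Hspa1a and Klf2 fell by 0.50 ± 0.07 and 0.89 ± 0.18. Against untreated tumour cells, 18 of the 19 cell cycle genes had negative differences short-term (median -0.34). Long-term, 18 were positive (median 0.34), and 0 were called by limma in either comparison. In short-term endothelial cells all 19 cell cycle genes had negative differences (median -1.06), 14 of them at an unadjusted p under 0.05 and 0 called by limma. Gadd45a was at 0.89 ± 0.26 in short-term against untreated tumour cells and -0.97 ± 0.22 in long-term against short-term ones (adjusted p = 0.175 and 0.0633).

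The members varied largely apart from one another. With each cell type's mean subtracted, the 45 pairs had a median Pearson correlation of 0.14 over the 23 arrays, which share treatment groups and 1 normalization, and 33 pairs were positive. Mdm2 and Ccng1 were the closest pair at 0.62, followed by Ccng1 and Zmat3 at 0.53, and Sesn1 and Pmaip1 the most opposed at -0.53. The genes most like Mdm2 by the same measure were Matn2 (0.92) and Hmga2 (0.91). Those most like Btg2 were Serinc2 (0.81) and the chemokine gene Cxcl1 (0.80), those most like Ccng1 were Gpc6 (0.81) and Tmem19 (0.79), and those most like Sesn1 were Sclt1 (0.79) and the macrophage marker Aif1 (0.76). For Plk2 they were Sparcl1 (0.72) and Nedd4l (0.71), for Trp53inp1 Psrc1 (0.74) and Tor1aip2 (0.72), and for Zmat3 Irf2bpl (0.84) and Gm5709 (0.80). Phlda3 was most like Cnih3 (0.77) and Dlg4 (0.73), Bbc3 most like Cpn1 (0.81) and Gm13889 (0.79), and Pmaip1 most like Tmem120a (0.83) and Mir196b (0.79).

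Within the endothelial arrays Mdm2 followed the level of tumour cell genes. The measure was the mean of the 100 genes, no member among them, with the largest excess of untreated tumour over untreated endothelial cells, a measure chosen after seeing the data. The untreated endothelial arrays served to choose these genes and are among those correlated, and genes near Mdm2 on its chromosome were not kept out. The adjustment of the p-values does not cover this choice. This mean ran from 8.59 to 8.96 in tumour arrays. In endothelial arrays it was 6.45, 5.19 and 5.85 untreated, 5.93, 5.92 and 5.82 short-term, and 5.33, 6.62, 7.29, 6.82 and 6.02 long-term, in the replicate order used for Mdm2. The arrays with the 2 lowest means were those with the 2 lowest Mdm2 levels. The 3 endothelial arrays highest in macrophage markers had tumour gene means of 6.45, 7.29 and 6.82. Their Mdm2 levels of 11.19, 11.32 and 10.59 were the highest of the 11, so leaving them out also removed arrays high in tumour genes. Over the 11 endothelial arrays r was 0.87 (permutation p = 0.00042, adjusted over 40 relations 0.0084) and rho 0.81 (0.0037 and 0.05). It was 0.85 without the 2 arrays farthest from the median and 0.95 after subtracting the treatment group means. For Ccng1 r was 0.66 (permutation p = 0.023, adjusted 0.11), and for the other 8 members it ran from -0.01 to 0.47. After subtracting group means it was 0.70 for Ccng1, 0.62 for Phlda3, 0.58 for Trp53inp1 and 0.56 for Btg2, and from -0.20 to 0.32 for the rest. With the macrophage mean Mdm2 had r = 0.73 and rho = 0.63 (permutation p = 0.0061 and 0.044, adjusted 0.061 and 0.22), with 0.42 without the 2 farthest arrays and 0.82 after subtracting group means. The share of tumour cell RNA in the endothelial arrays was not measured, and its part in the Mdm2 levels was not tested.

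Btg2 followed the immediate early genes in both cell types. Over the 12 tumour arrays r was 0.92 and rho 0.89 (permutation p = 4e-05 and 0.00022, adjusted 0.0016 and 0.0088), with 0.89 without the 2 farthest arrays and 0.86 after subtracting group means. Over the 11 endothelial arrays r was 0.81 and rho 0.86 (permutation p = 0.0034 and 0.0013, adjusted 0.045 and 0.026), with 0.80 and 0.76 in the same order. The permutations ignored treatment groups, so these p-values also count shifts that both quantities share between groups. Of the other 9 members, Pmaip1 (r = 0.73, permutation p = 0.009, adjusted 0.072) and Ccng1 (0.68, 0.016 and 0.092) came nearest in tumour cells. After subtracting group means these 2 stood at 0.62 and 0.25, and Zmat3 came nearest at 0.76 (0.40 before). In endothelial cells Phlda3 then stood at 0.82, above Btg2, with r = -0.0 before the subtraction. A relation within groups was therefore not particular to Btg2. Plk2, which growth factors also induce, had r = 0.01 in tumour and 0.61 in endothelial cells (permutation p = 0.97 and 0.05, adjusted 1 and 0.2). Without the 2 farthest arrays its r was -0.13 and 0.33 in the same order. After subtracting group means it was 0.41 and -0.38, so the positive endothelial value did not hold within groups.

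**Figure D4:**
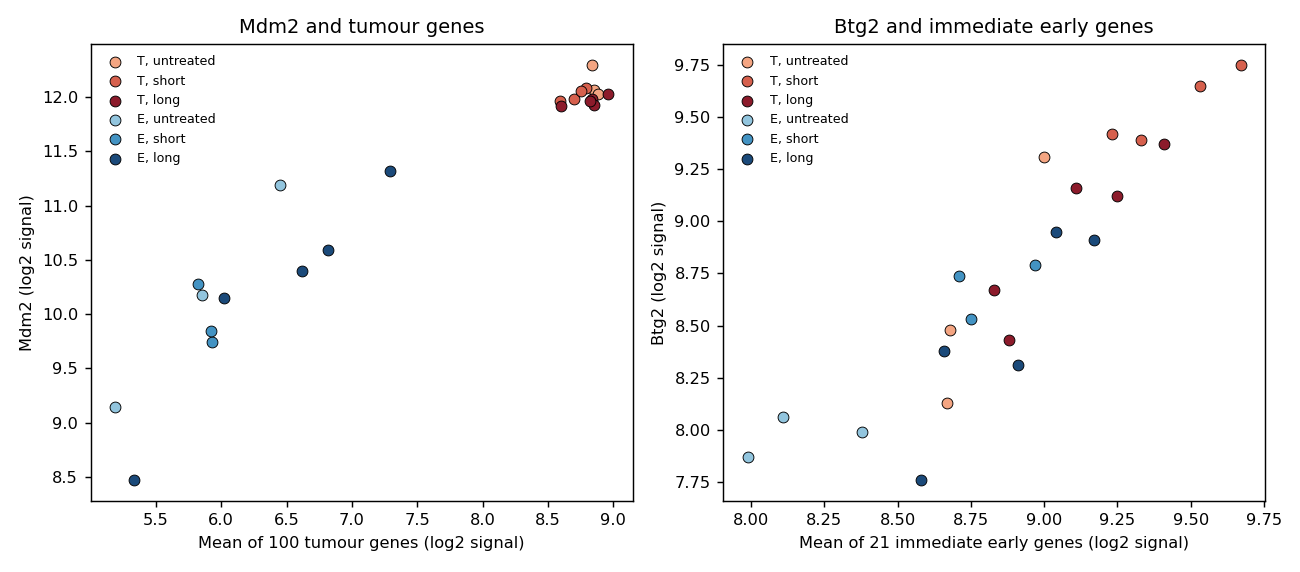
Left, level of Mdm2 against the mean of 100 tumour genes, and right, level of Btg2 against the mean of 21 immediate early genes, all as log2 signals with 1 point per array, coloured by group. In endothelial (E) arrays Mdm2 rises with the tumour gene mean (r = 0.87, n = 11), and Btg2 rises with the immediate early mean in tumour (T, r = 0.92, n = 12) and endothelial arrays (r = 0.81, n = 11).

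Some genes near Mdm2 on chromosome 10 were also called lower in endothelial than in tumour cells, and others were not. The neighbours were chosen after seeing the data, so they are a description and carry no test of the group. Of the 20 nearest measured genes, 10 on each side in the gene order of RefSeq, 7 were called lower and 1 higher in untreated cells, where 10.2% and 8.18% of all genes were. In short-term cells 10 were lower and 3 higher (17.0% and 23% of all genes), and in long-term cells 10 lower and 1 higher (16.3% and 15.7%). The median difference of the 20 was -0.08 untreated, -0.62 short-term and -0.44 long-term. The 5 neighbours with the most negative long-term differences stood at places 1 to 7 from Mdm2: Cpm was at -2.53 ± 0.36 log2 units, Slc35e3 at -2.16 ± 0.52, Nup107, a nuclear pore gene, at -2.39 ± 0.40, Mdm1 at -2.6 ± 0.44 and the kinase gene Dyrk2 at -2.16 ± 0.45. In untreated cells the same genes were at -1.74 ± 0.47, -2.07 ± 0.67, -2.33 ± 0.51, -1.48 ± 0.57 and -2.18 ± 0.58, Mdm1 not called at adjusted p = 0.0805. Among them lay genes with smaller long-term differences, Rap1b at -0.96 ± 0.17, Iltifb at 0.23 ± 0.10 and Ifng at 0.06 ± 0.11. Cpsf6, just beyond Cpm on the same side of Mdm2, was at -1.09 ± 0.16 long-term and -0.47 ± 0.21 untreated (adjusted p = 0.14 untreated). In long-term cells the lysozyme genes Lyz2 and Lyz1, expressed by macrophages, were at 2.37 ± 0.97 and 1.70 ± 0.51. What sets these differences was not tested.

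**Figure D5:**
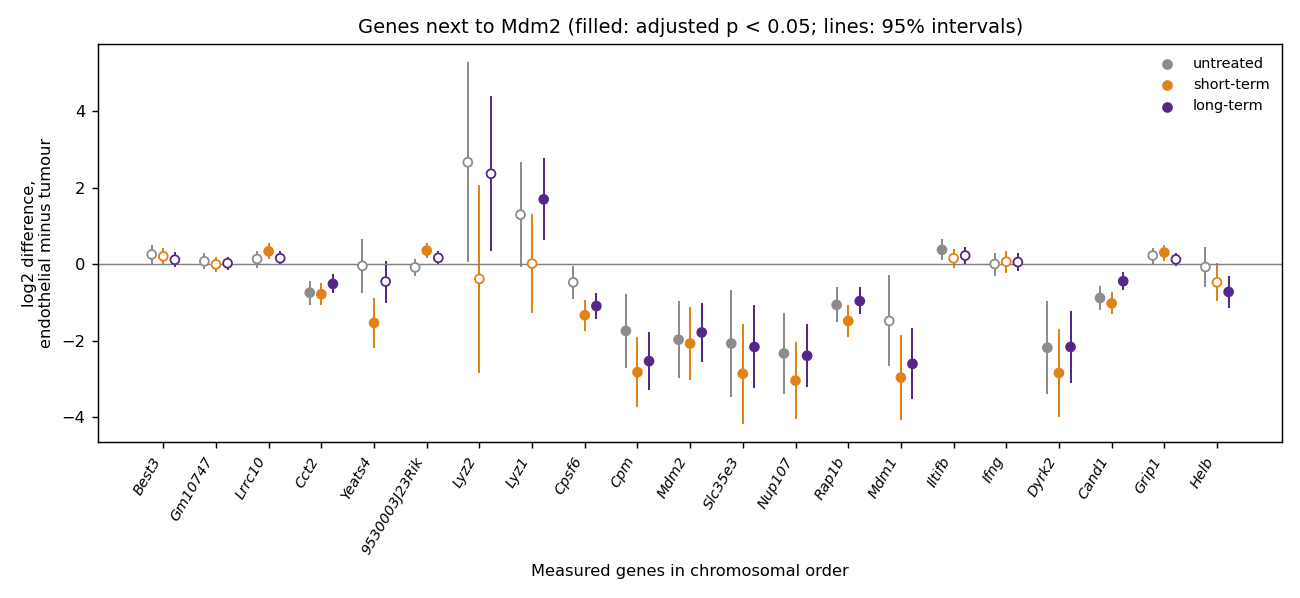
Difference in level (log2, endothelial minus tumour) of Mdm2 and the 10 measured genes on each side of it, in gene order along the chromosome, in untreated, short-term and long-term cells. Filled points were called at an adjusted p under 0.05; in long-term cells 10 of the 20 neighbours were called lower, with Mdm1 at -2.6.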

How the data were processed

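The authors deposited log2 signals per transcript cluster, 1 array per sample. Per the submitters' processing notes the oligo package and its RMA method were used; version and genome build were not given in the sources used here. The RMA step equalises the distribution of values between arrays, so changes are relative to the other transcripts. The lowest value was 1.93 and the highest 14.06. Precision is limited by how many arrays there are. Of 35556 clusters 21789 named 1 gene, 1621 several, and 12146 were unlisted or had no gene name. Old symbols were replaced by way of RefSeq gene identifiers (21698 matched), and the cluster with the highest mean was kept, leaving 19938 genes.

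Tests used limma 3.58.1 in R 4.3.3. Treatment groups were compared in a fit per cell type (12 tumour or 11 endothelial arrays), and cell types and differences of treatment effects in a fit over all 23. P-values were two-sided. The fit was tested on simulated data. Permutation tests of correlations used 100000 resamples and exchanged arrays of a cell type across treatment groups. Their p-values therefore also count shared shifts between groups, and no p-value was computed after subtracting group means. All members, Mdm4 and Gadd45a, and up to 4 called genes per list with the smallest p were named, with the 2 genes most like each member. Members and lists were chosen with earlier results of these data known. Alternatives were another choice of arrays in the fit, a filter on the lowest 30% of mean level, array weights, a variance trend, the mean of all clusters, renewed quantile normalization, median centring, the replicate block and leaving out each array.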

Additional observations from a re-analysis of the deposited data

How the results depend on the processing

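Of the 21 called differences of members, all between the cell types, 345 of 355 values under the alternatives remained called in the same direction, 10 were no longer called, and 0 changed sign. Leaving out 1 array moved the number of members called in untreated cells from 5 to between 3 and 5; it was 3 without untreated endothelial replicate 2. The labels do not say whether replicate numbers pair the samples. Deviations of same-numbered arrays correlated from -0.15 to 0.11 and of differently numbered ones from -0.24 to 0.22. With so few arrays this cannot decide whether arrays share an animal. With the replicate block 4, 7 and 8 members were called in untreated, short-term and long-term cells in place of 5, 8 and 8, and Phlda3 in short-term cells (-0.91, adjusted p = 0.0604) and Trp53inp1 in untreated cells (-1.09, adjusted p = 0.0971) lost their calls. Renewed quantile normalization ended the untreated call of Trp53inp1 (-0.94, adjusted p = 0.0707) and added Bbc3 in short-term cells (0.45, adjusted p = 0.0453); the cause was not tested. For the 89 differences not called, 2 of 1585 values became called and 76 changed sign without a call. Under 97 alternatives of the 6 treatment comparisons 0 members were called by limma. No member was left out by the filter on dim genes. The number of arrays, 3 to 5 a group, limits the precision.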
